A study of Mus musculus with 12 samples.

Results

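The comparison described here asked whether the heart's response to pressure overload differed between diets with and without BCAA, the branched-chain amino acids leucine, valine and isoleucine. It used all 12 libraries of the series. RNA came from hearts of male C57Bl/6J mice, 12 weeks old, in 4 groups of 3 libraries. Mice ate a BCAA-control diet or a BCAA-free diet for 4 days, then had a sham operation or a transverse aortic constriction (TAC), in which the aortic arch is narrowed so that the left ventricle pumps against a raised pressure, and hearts were taken 1 week later. All 4 groups received 1% propionate in the diet, a short-chain fatty acid that cells turn into propionyl-CoA, so no group shows either diet without propionate. Groups are named by diet and then surgery, from control sham to BCAA-free TAC. For each gene the difference was the TAC response (TAC minus sham) on the BCAA-free diet minus the TAC response on the control diet, on the scale log2(normalised reads + 4). A value below 0 means that a gene rose less, or fell more, after TAC on the BCAA-free diet. Of 15525 genes listed in both deposited TAC tables, 15524 had a mean of at least 10 normalised reads over the 12 libraries and were tested, out of 16514 genes listed in any table of the series.

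A heart under pressure overload enlarges its muscle cells, lays down extracellular matrix and returns to part of its fetal gene programme. Adult heart muscle cells divide rarely, and most dividing cells of an overloaded heart are fibroblasts, endothelial cells and immune cells. BCAA are essential amino acids, used for protein synthesis, sensed by the growth kinase mTORC1 and burned in mitochondria, and isoleucine and valine, like propionate, yield propionyl-CoA.

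The libraries held 29927472 to 46097445 reads in genes of their TAC table. Heart markers such as Myh6 were abundant in every library, and the 11 cardiomyocyte markers together held 85204 to 105179 CPM (reads of a library scaled to a common total, in genes listed in both TAC tables). Whether each library is from its own mouse is not stated in the labels, so p-values reflect the spread among libraries, part of which may be technical. Control TAC replicate 3 stood apart in liver transcripts, with 6668 reads of Alb (serum albumin) against 0 to 3 in the other 5 control libraries. Control TAC replicate 2 stood apart in RNA polymerase III transcripts, with 122 CPM against 1.59 to 26.3 in the others. Replicate 1 of both TAC groups held the most extracellular matrix RNA of its group. Results below are given without control TAC replicates 2 and 3 where that matters. In whole-heart RNA, fewer cells of a type and less RNA per cell cannot be told apart.

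Across all genes the responses to TAC on the 2 diets were alike in part. TAC changed 848 of 15873 genes on the control diet (5.34%) and 688 of 15936 on the BCAA-free diet (4.32%), at an adjusted p under 0.05 (limma, Benjamini-Hochberg over all genes). The responses, which share no library, had a Pearson r of 0.53 and a Spearman rho of 0.44 across 15498 genes, which are not independent replicates. The difference itself passed in 7 of 15524 genes (0.0451%), 1 above 0 (0.00644%) and 6 below 0 (0.0386%). An unadjusted p under 0.05 was reached by 1568 genes (10.1%), 798 above 0 (5.14%) and 770 below 0 (4.96%). The median difference over all genes was -0.00077, and 50.2% of genes lay below 0 and 49.8% above. The difference had a median SE of 0.17, and 329 genes (2.12%) differed by at least 1 on the log2 scale in either direction, so that most differences of that size did not pass.

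**Figure D1:**
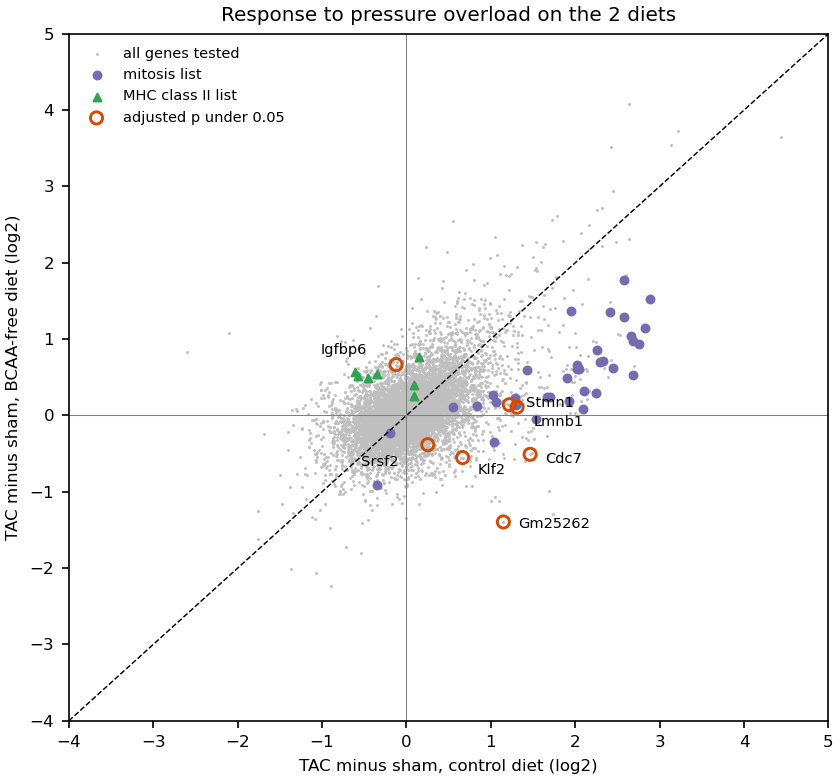
Each point is a gene, with its TAC response on the control diet (x axis) and on the BCAA-free diet (y axis), both as log2 differences, and the dashed line marks equal responses. The 35 mitosis genes lie below the line, the 7 MHC class II genes above it, and the 7 ringed genes are those whose difference passed an adjusted p of 0.05.

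Of the 7 genes, 3 are genes of dividing cells that TAC raised on the control diet alone by test: Lmnb1, Stmn1 and Cdc7. Lmnb1 encodes lamin B1, a filament protein under the nuclear envelope. Its level in control sham replicates 1 to 3 was 235, 218 and 206 normalised reads, and in control TAC 565, 564 and 522. In BCAA-free sham it was 202, 202 and 211, and in BCAA-free TAC 225, 223 and 216. The control TAC libraries were thus high and the other 9 libraries lay together far below them. Lmnb1 rose by 1.31 ± 0.10 (log2, SE) on the control diet (adjusted p = 0.000531, limma), and its response on the BCAA-free diet was 0.11 ± 0.12 (adjusted p = 0.644). The difference was -1.20 ± 0.14 with a 95% interval of -1.49 to -0.91 (adjusted p = 0.00401), so that the fold on the BCAA-free diet was 0.435 times that on the control diet. In the smaller fit without control TAC replicates 2 and 3 it was -1.24, with an adjusted p of 0.065.

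Stmn1 encodes stathmin, which takes microtubules apart and is made by growing cells. Its levels were 304, 393 and 330 normalised reads in control sham and 904, 788 and 714 in control TAC. They were 368, 324 and 308 in BCAA-free sham and 401, 366 and 336 in BCAA-free TAC. Only control TAC stood clear of the other groups, which overlapped one another. Stmn1 rose by 1.22 ± 0.12 on the control diet (adjusted p = 0.00267, limma) and its response on the BCAA-free diet was 0.14 ± 0.12, a difference of -1.08 ± 0.17 (adjusted p = 0.0433). The gene lies at chr4:134468320-134473843 (GRCm38, plus strand, GENCODE M21), with a microRNA gene annotated inside it on the same strand.

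Cdc7 encodes the kinase that starts DNA replication at licensed origins. Its levels were low, with 30.4, 36.3 and 27.3 normalised reads in control sham and 102, 106 and 74.6 in control TAC. BCAA-free sham held 44.0, 31.7 and 41.4 and BCAA-free TAC 22.2, 30.8 and 25.6. Control TAC was again the high group, and on the BCAA-free diet the TAC libraries all lay under the sham libraries. The gene rose by 1.47 ± 0.22 on the control diet (adjusted p = 0.0101, limma), its response on the BCAA-free diet was -0.51 ± 0.25 (adjusted p = 0.278), and the difference was -1.97 ± 0.31 (adjusted p = 0.0433). Cdc7 lies at chr5:106964322-106984432 (plus strand).

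Klf2, Srsf2 and Gm25262 had another pattern, in which TAC moved the groups towards one another from unequal sham levels. Klf2 encodes a transcription factor that blood flow induces in endothelial cells. Its level in control sham was 1384, 1664 and 1759 normalised reads and in control TAC 2486, 2658 and 2452. In BCAA-free sham it was 4181, 3538 and 3352, and in BCAA-free TAC 2270, 2679 and 2585. The sham groups were far apart, while the TAC groups overlapped between the diets. Klf2 rose by 0.67 ± 0.09 after TAC on the control diet (adjusted p = 0.0075, limma) and fell by 0.55 on the BCAA-free diet (adjusted p = 0.0118). The difference was -1.22 ± 0.14 (95% interval -1.52 to -0.92, adjusted p = 0.00401). In the sham libraries Klf2 was higher on the BCAA-free diet by 1.11 (adjusted p = 0.00132), and in TAC hearts the diet difference was -0.11 (adjusted p = 0.522). These diet contrasts use the same libraries as the difference and are no second line of evidence. Klf2 lies at chr8:72319033-72321656 (plus strand), and its difference without control TAC replicates 2 and 3 was -1.19 (adjusted p = 0.065).

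Srsf2 encodes an SR protein that binds exons and guides splicing. It held 3242, 3044 and 3284 normalised reads in control sham, 4130, 3552 and 3741 in control TAC, 4370, 4460 and 4500 in BCAA-free sham, and 3419, 3205 and 3610 in BCAA-free TAC. BCAA-free sham was the highest group, and control sham and BCAA-free TAC overlapped at the low end. TAC lowered Srsf2 on the BCAA-free diet by 0.38 (adjusted p = 0.0124, limma); on the control diet its response was 0.25 ± 0.07 (adjusted p = 0.0741). The difference was -0.64 ± 0.09 (adjusted p = 0.0404). Srsf2 (chr11:116849901-116853094, minus strand) overlaps Mettl23 and Mfsd11 on the opposite strand, and since counting by strand is not stated, reads of these genes may be shared.

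Gm25262 is a predicted microRNA gene (chr4:43631425-43631557, plus strand) that overlaps the antisense gene Gm12473, so its reads may belong to that gene. It was near the lower limit of what was tested, with 7.30, 4.54 and 4.21 normalised reads in control sham and 13.5, 15.5 and 21.3 in control TAC. BCAA-free sham held 30.1, 33.6 and 29.7 and BCAA-free TAC 10.5, 10.3 and 7.44. Within each diet the sham and TAC libraries did not overlap. BCAA-free sham was the highest group, and control sham and BCAA-free TAC lay close to each other. The levels of the diets were scaled separately, so small gaps between diets cannot be read as separation. Its difference was -2.54 ± 0.40 (adjusted p = 0.0433, limma). The value rests on few reads a library.

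Igfbp6, which encodes a binding protein that holds insulin-like growth factor II away from its receptor, was the gene above 0. Its levels were 538, 616 and 518 normalised reads in control sham, 523, 490 and 519 in control TAC, 586, 552 and 584 in BCAA-free sham, and 892, 969 and 880 in BCAA-free TAC. The BCAA-free TAC libraries stood well above all others, and the other 3 groups lay between 490 and 616. Igfbp6 rose by 0.67 ± 0.08 on the BCAA-free diet (adjusted p = 0.00313, limma), its response on the control diet was -0.12 ± 0.09 (adjusted p = 0.495), and the difference was 0.79 ± 0.12 (adjusted p = 0.0404). It lies at chr15:102144362-102149511 (plus strand). Among 14 genes of the insulin-like growth factor system it alone passed. Igfbp2, which TAC raised on both diets by 4.43 and 3.64 (adjusted p = 0.000121 and 0.00285), had a difference of -0.79 ± 0.55 (adjusted p = 0.684).

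**Figure D2:**
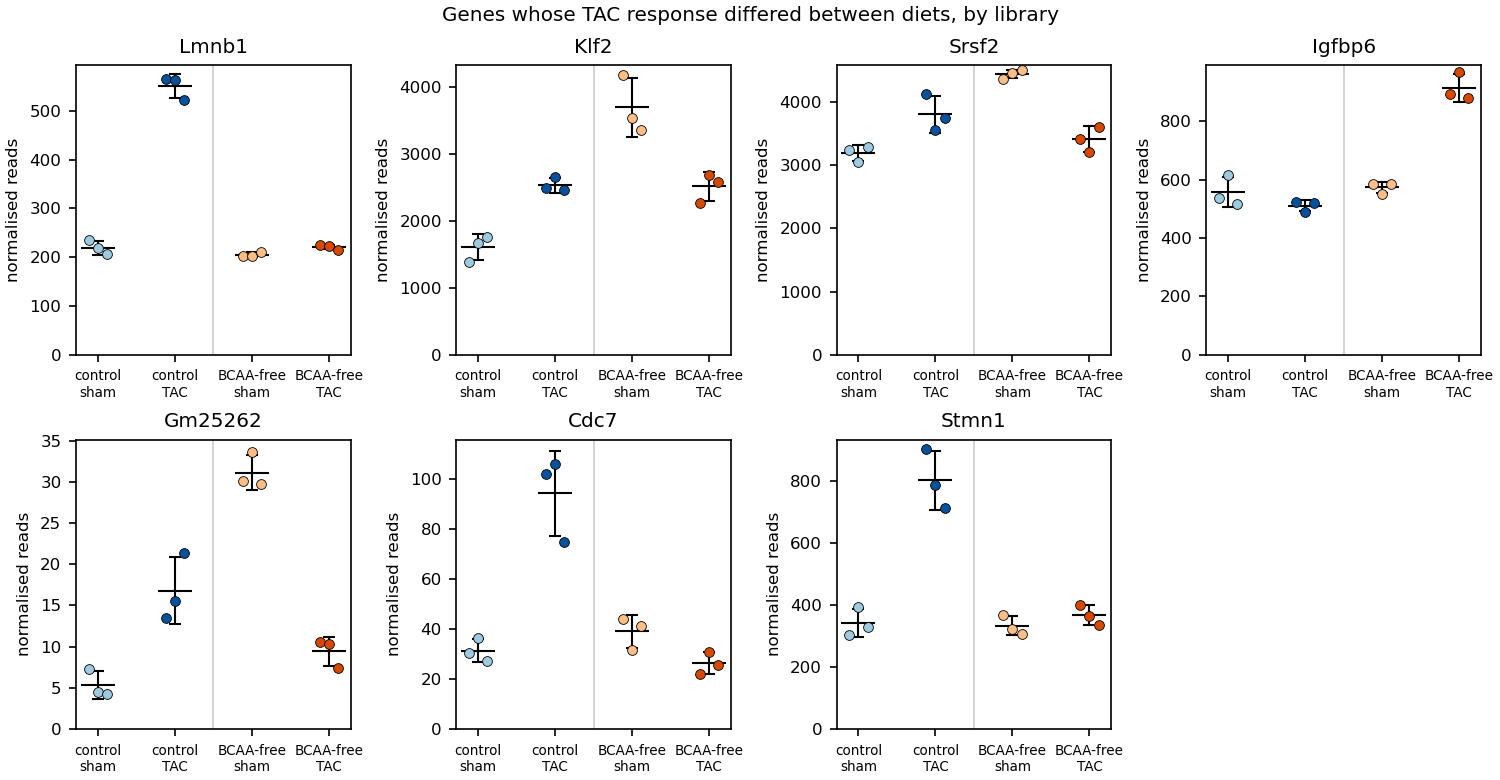
Normalised reads of the 7 genes whose difference passed, by group, with 1 point for each library and a bar and whiskers for the mean and SD (n = 3). Lmnb1, Stmn1 and Cdc7 are high in control TAC, Igfbp6 in BCAA-free TAC, and Klf2, Srsf2 and Gm25262 are highest in BCAA-free sham.

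How far the 7 calls hold differed between them. Lmnb1 and Klf2 passed in 12 of 12 fits that left out 1 library each. Srsf2 passed in 4 of 12, Igfbp6, Gm25262 and Stmn1 in 2 of 12 each, and Cdc7 in 0 of 12, with a highest adjusted p of 0.17 for Gm25262. In those fits the differences of all 7 genes kept their sign. In up to 13 other settings that kept all 12 libraries, Lmnb1 passed in 13 of 13, Klf2 and Srsf2 in 12 of 13, Igfbp6 in 11 of 13, Gm25262 in 9 of 12, Cdc7 in 7 of 12 and Stmn1 in 6 of 13. Klf2, Srsf2, Igfbp6 and Stmn1 did not pass without an intensity trend in the prior spread (adjusted p = 0.0567, 0.128, 0.0621 and 0.128, limma). None of the 7 passed without control TAC replicates 2 and 3 together.

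The next genes in order of p were taken among those with a mean of at least 50 and a symbol that is no predicted gene. Those named here did not pass (adjusted p from 0.0797 to 0.126, limma) and are given as values. Several belong to DNA replication and cell division, all with a negative difference. These are Prc1, which bundles spindle microtubules at the cell's midzone (-1.95 ± 0.35), Mcm5, a subunit of the replicative helicase (-1.45 ± 0.30), and Anln, the cytokinesis protein anillin (-1.42 ± 0.28). They also include Smc2, a condensin subunit (-1.39 ± 0.28), Lig1, the ligase that joins Okazaki fragments (-1.13 ± 0.22), and Pkmyt1, an inhibitory kinase of the mitotic cyclin-dependent kinase (-0.99 ± 0.20). Smaller differences were found for Hjurp, the chaperone of the centromeric histone (-0.68 ± 0.13), Tubb5, a beta-tubulin (-0.69 ± 0.14), and Rrm1, the large subunit of ribonucleotide reductase (-0.57 ± 0.11). Of other kinds were Cebpb, a transcription factor of stress and inflammation (-1.98 ± 0.39), Pdgfb, a growth factor for mural cells (-0.74 ± 0.15), and Hnrnpd, which binds unstable mRNAs (-0.64 ± 0.12). Prickle3 (-0.57 ± 0.11), Crebzf (-0.57 ± 0.11), the small GTPase Rac1 (-0.48 ± 0.10) and the kinase Map4k3 (-0.46 ± 0.09) completed the named genes below 0. Above 0 were H2-Aa (1.18 ± 0.20) and H2-Eb1 (1.09 ± 0.22), chains of MHC class II, and Serping1, the inhibitor of complement C1 (0.58 ± 0.12).

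Among the 18 gene lists described here, genes of mitosis had the lowest median difference. Other lists were computed and are not described in full. Of those, RNA polymerase III transcripts had a lower median (-1.55, 3 genes tested). Neutrophil markers had a median further from 0, on the other side (2.44, 4 genes tested). The mitosis list holds 44 genes of spindle, kinetochore, chromosome condensation and cytokinesis. Of these, 35 were tested, and the other 9 (Bub1, Ttk, Ndc80, Knl1, Kif2c, Ect2, Hmmr, Ncapg and Pbk) were listed in the control TAC table alone. TAC on the control diet raised 33 of the 35 (background 3.4% of genes) and lowered 0. On the BCAA-free diet it raised 1, Ccna2 (background 2.94%), and lowered 1, Cenpf (background 1.37%). The median response was 2.02 on the control diet and 0.53 on the BCAA-free diet. The difference lay below 0 in 35 of 35 (50.2% of all genes) and reached an unadjusted p under 0.05 in 27 (4.96% of all genes), with a median of -1.41. None of the 35 passed after adjustment over all genes.

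Mki67, the proliferation marker Ki-67, shows the spread behind this. It held 128, 262 and 54.7 normalised reads in control sham and 897, 797 and 884 in control TAC. It held 29.0, 53.8 and 38.2 in BCAA-free sham and 160, 53.5 and 55.4 in BCAA-free TAC. Control TAC was uniformly high, control sham varied widely, and BCAA-free TAC was high in replicate 1 alone and overlapped its sham group. Mki67 rose by 2.76 on the control diet (adjusted p = 0.0101, limma), its response on the BCAA-free diet was 0.93 (adjusted p = 0.193), and the difference was -1.83 ± 0.65 (adjusted p = 0.338).

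Prc1, with the smallest p of the list, was tighter. It held 45.0, 73.8 and 52.6 normalised reads in control sham, 306, 269 and 268 in control TAC, 65.5, 34.6 and 53.0 in BCAA-free sham, and 83.3, 49.4 and 57.0 in BCAA-free TAC. Control TAC again stood alone, and the other 3 groups overlapped. Ccna2, cyclin A2, was the member that TAC raised on both diets. It went from 34.1, 62.4 and 40.0 to 296, 247 and 221 on the control diet and from 15.0, 12.5 and 13.8 to 59.1, 24.7 and 47.1 on the BCAA-free diet. Its responses were 2.42 and 1.35 (adjusted p = 0.0022 and 0.0438), with a difference of -1.07 ± 0.40 (adjusted p = 0.362).

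**Figure D3:**
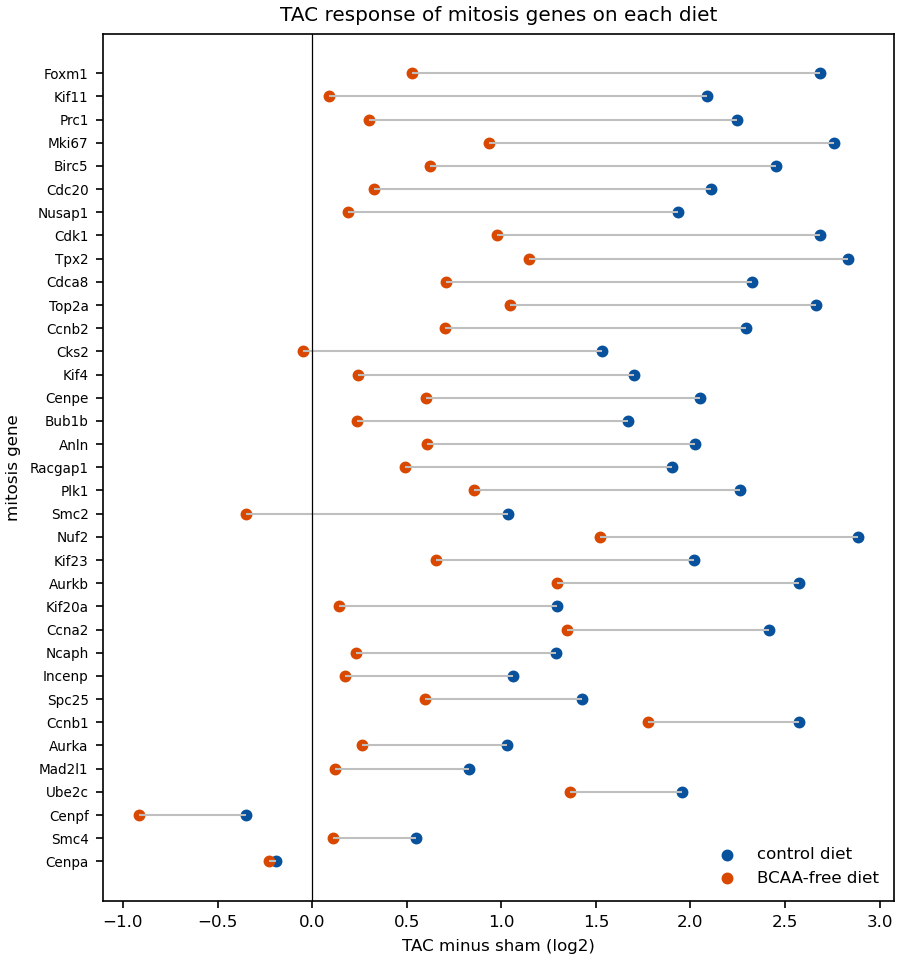
TAC minus sham (log2) of the 35 tested mitosis genes on the control diet (blue) and the BCAA-free diet (orange), ordered by the difference between them. The orange point lies left of the blue point for all 35 genes, and they are up to 2.16 apart.

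The mitosis list as a whole held 114, 144 and 105 CPM in control sham replicates 1 to 3 and 299, 254 and 271 in control TAC. It held 106, 105 and 108 in BCAA-free sham and 119, 86.9 and 107 in BCAA-free TAC. The rise of the sum was thus seen in all 3 control TAC libraries, while the sum in BCAA-free TAC lay around its sham group. Abundant members weigh most in this sum. Taken gene by gene, the median response on the BCAA-free diet was 0.53, a smaller rise than on the control diet (2.02). Without control TAC replicates 2 and 3 the median difference was -1.53, and 35 of 35 still lay below 0. Between the diets, 4 of 33 members tested were lower on the BCAA-free diet in sham hearts (background 1.76%) and 32 of 35 in TAC hearts (background 2.11%), from libraries that the difference also uses. The median diet difference was -0.59 in sham hearts and -2.17 in TAC hearts.

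Many promoters of mitotic genes carry a cell cycle genes homology region (CHR, TTTGAA or TTCGAA), bound by the MuvB complexes that repress these genes in resting cells and activate them before division, often beside CCAAT boxes bound by NF-Y. The promoters of the mitosis list were searched in RefSeq sequence (GRCm38.p6) from 250 bases before to 50 bases after each start. Of the 44 genes of the list, tested here or not, 36 were matched, with 38 promoters. TTTGAA, on either strand (reverse complement TTCAAA), stood in 29 of 38 (76.3%) against 17.9% of all 32851 promoters of that length. CCAAT (reverse complement ATTGG) also stood in 29 (76.3%) against 37.4%, and both stood in 25 (65.8%) against 6.95%. TTCGAA, which is its own reverse complement and differs from TTTGAA by 1 letter, stood in 3 (7.89%) against 1.56%. GGCGGGAA, an E2F-type site (reverse complement TTCCCGCC), stood in 0 against 2.19%. These matches describe the letters of the windows and say nothing of binding in these hearts. They use no expression value and would be the same for this list whatever its response to TAC. They therefore cannot bear on why its genes moved together. The 150 bases before the start are shown for 4 mitosis genes that hold TTTGAA and CCAAT there and no annotated exon, on the strand of the gene, with TTTGAA and CCAAT or their reverse complements in capitals. They are Smc2 (chr4:52439071-52439220, plus strand), Kif11, a spindle kinesin (chr19:37376232-37376381, plus strand), Top2a, a DNA topoisomerase (chr11:99024190-99024339, minus strand), and Mki67 (chr7:135716380-135716529, minus strand).
Smc2: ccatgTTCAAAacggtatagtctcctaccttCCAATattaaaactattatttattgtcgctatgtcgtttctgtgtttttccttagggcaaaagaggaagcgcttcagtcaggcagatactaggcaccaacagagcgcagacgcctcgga
Kif11: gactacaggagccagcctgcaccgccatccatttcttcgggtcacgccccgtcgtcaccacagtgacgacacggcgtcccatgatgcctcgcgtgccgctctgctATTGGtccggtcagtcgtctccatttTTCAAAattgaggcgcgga
Top2a: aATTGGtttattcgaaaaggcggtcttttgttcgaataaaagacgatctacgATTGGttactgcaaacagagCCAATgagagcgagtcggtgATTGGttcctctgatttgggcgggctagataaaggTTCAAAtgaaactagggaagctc
Mki67: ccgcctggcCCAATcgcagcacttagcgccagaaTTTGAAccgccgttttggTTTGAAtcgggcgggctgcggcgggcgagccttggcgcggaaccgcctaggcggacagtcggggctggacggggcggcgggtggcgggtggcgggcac
The differences of these genes were -1.39 for Smc2, -1.999 for Kif11, -1.62 for Top2a and -1.83 for Mki67, with unadjusted p-values of 0.000244, 0.00211, 0.00577 and 0.0139 (limma).

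DNA replication genes followed the mitosis genes at a smaller size. Of 35 members, all tested, TAC on the control diet raised 16 (3.4% of all genes) and lowered 0, and on the BCAA-free diet it raised 0 (2.94% of all genes) and lowered 0. The difference lay below 0 in 35 of 35 (50.2% of all genes), reached an unadjusted p under 0.05 in 23 (4.96% of all genes) and had a median of -0.58, with 0 past the adjusted threshold. Lig1 held 186, 196 and 126 normalised reads in control sham, 470, 464 and 398 in control TAC, 161, 150 and 153 in BCAA-free sham, and 183, 172 and 206 in BCAA-free TAC. Control TAC was clear of the other libraries. Rrm1, which makes deoxynucleotides, rose by 0.39 on the control diet (adjusted p = 0.0333, limma) and its response on the BCAA-free diet was -0.18 (adjusted p = 0.27). The list's summed level was 267 to 327 CPM in control TAC and 172 to 209 in the other 9 libraries. The median was -0.68, with 32 of 35 below 0, when control TAC replicates 2 and 3 were left out.

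MHC class II genes, which present antigen on macrophages, dendritic cells and B cells, went the other way. All 7 members had a difference above 0 (49.8% of all genes), 4 reached an unadjusted p under 0.05 (5.14%), and the median was 0.89. None passed after adjustment. H2-Aa held 836, 1277 and 1136 normalised reads in control sham, 745, 645 and 702 in control TAC, 634, 657 and 783 in BCAA-free sham, and 1207, 953 and 932 in BCAA-free TAC. The control sham and BCAA-free TAC libraries were the high ones. H2-Aa fell by 0.61 on the control diet (adjusted p = 0.0401, limma) and rose by 0.57 on the BCAA-free diet (adjusted p = 0.0256), and the difference had an adjusted p of 0.0797. On the control diet 0 of the 7 rose (3.4% of all genes) and 1 fell (1.94%). On the BCAA-free diet 3 rose (2.94%) and 0 fell (1.37%). In sham hearts 4 of the 7 were lower on the BCAA-free diet (1.76% of all genes), so the difference includes an unequal start. MHC class I and antigen-processing genes had a difference above 0 in 11 of 12 (49.8% of all genes), with a median of 0.38. Of these, 4 reached an unadjusted p under 0.05 (5.14%). H2-T23 (0.43 ± 0.12, adjusted p = 0.225) and H2-Q4 (0.74 ± 0.23, adjusted p = 0.282) had the smallest p. This list too had an unequal start. In sham hearts 4 of the 12 were lower on the BCAA-free diet (1.76% of all genes), with a median of -0.41. In TAC hearts 0 were lower, with a median of -0.08. H2-Q4 differed between the diets by -0.90 in sham hearts (adjusted p = 0.00675, limma) and -0.16 in TAC hearts (adjusted p = 0.63). The difference uses these same libraries. These genes have close copies in the genome, and how reads were shared among copies is not given in the sources used here.

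Interferon-response genes had a median difference of 0.26, with 22 of 28 above 0 (49.8% of all genes). Of these, 3 reached an unadjusted p under 0.05 (5.14%) and 0 passed the threshold. TAC raised 0 of the 28 on the control diet (3.4% of all genes) and 4 on the BCAA-free diet (2.94%). Among the 4 were Ifi27l2a (1.00, adjusted p = 0.00507, limma) and Ifit3 (0.78, adjusted p = 0.0164). The diets did not start level. In sham hearts 10 of the 28 were lower on the BCAA-free diet (1.76% of all genes), with a median of -0.62, and in TAC hearts 5 of 28 were lower (2.11% of all genes), with a median of -0.44. Ifit3 was lower on the BCAA-free diet in sham hearts (-1.14, adjusted p = 0.00396, limma) and also in TAC hearts (-0.62, adjusted p = 0.0437). These libraries are those that the difference uses.

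Macrophage markers stood beside the MHC class II genes. Of 23 markers TAC raised 1 on the control diet (3.4% of all genes) and 16 on the BCAA-free diet (2.94%). In sham hearts 4 of the 23 were lower on the BCAA-free diet (1.76% of all genes). The difference lay above 0 in 21 of 23 (49.8% of all genes) and reached an unadjusted p under 0.05 in 9 (5.14%), with a median of 0.41 and 0 past the threshold. Lyz2, lysozyme of myeloid cells, rose by 0.87 on the BCAA-free diet (adjusted p = 0.00103, limma), against 0.16 on the control diet (adjusted p = 0.582), a difference of 0.71 ± 0.19 (adjusted p = 0.216). Csf1r, the receptor for the macrophage growth factor, had a difference of 0.48 ± 0.15 (adjusted p = 0.278). The summed level of the markers was 363 to 386 CPM in control sham and 649, 396 and 473 in control TAC replicates 1 to 3. It was 272 to 301 in BCAA-free sham and 590, 469 and 498 in BCAA-free TAC. The TAC groups overlapped, and the sham groups did not. Without control TAC replicates 2 and 3 the median was -0.03, below 0 in 12 of 23. That fit kept replicate 1 alone for control TAC, the library with the highest summed level of its group. The sign of this list therefore depends on which control TAC libraries are kept. In the same fit the MHC class II median was 0.74, with 6 of 7 above 0. The part of these libraries in the MHC class II result was not tested.

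Fibroblast markers had a difference above 0 in 15 of 15 (49.8% of all genes), with a median of 0.44. Of these, 8 reached an unadjusted p under 0.05 (5.14%) and 0 passed the threshold. TAC raised 3 of them (3.4% of all genes) and lowered 2 (1.94%) on the control diet. It raised 8 (2.94%) on the BCAA-free diet. Pi16, a marker of adventitial fibroblasts, rose by 1.26 on the BCAA-free diet (adjusted p = 0.00313, limma), and its response on the control diet was 0.35 (adjusted p = 0.0981). In sham hearts Pi16 was lower on the BCAA-free diet (-0.78, adjusted p = 0.00432), as were 6 of the 15 markers (1.76% of all genes), while in TAC hearts the diets differed by 0.13 for Pi16 (adjusted p = 0.70) and 0 of 15 were lower. The sham libraries also enter the difference. Islr, a surface protein of mesenchymal cells, had a difference of 0.76 ± 0.17 (adjusted p = 0.162). The median was 0.28, with 13 of 15 above 0, when control TAC replicates 2 and 3 were left out.

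The extracellular matrix itself responded on both diets. TAC raised 28 of 42 matrix genes on the control diet (3.4% of all genes) and 33 on the BCAA-free diet (2.94%). The median responses were 0.95 and 1.17. The difference had a median of 0.31, with 35 of 42 above 0 (49.8% of all genes). An unadjusted p under 0.05 was reached by 3 of 42, near the share of all genes (5.14%), and 0 passed the threshold. The summed level was 8841, 5181 and 5505 CPM in control TAC replicates 1 to 3 and 8214, 4450 and 4006 in BCAA-free TAC, so in each group replicate 1 was far above the others. The sham groups differed between the diets, with 3300 to 3878 CPM on the control diet and 2463 to 2771 on the BCAA-free diet. In sham hearts 20 of 41 matrix genes were lower on the BCAA-free diet (1.76% of all genes) and 1 was higher, with a median of -0.41. In TAC hearts 0 of 42 were lower and 2 were higher, with a median of -0.01. Col3a1 was lower on the BCAA-free diet in sham hearts (-1.05, adjusted p = 0.00132, limma), and its diet difference in TAC hearts was -0.44 (adjusted p = 0.597). The difference of TAC responses uses these same libraries and so includes the unequal start. Without BCAA-free TAC replicate 1 the median difference was -0.09, and without control TAC replicates 2 and 3 it was -0.20. Col1a1 and Col3a1, chains of fibrillar collagen, had differences of 0.40 ± 0.50 (95% interval -0.68 to 1.48) and 0.61 ± 0.47 (-0.41 to 1.62), with adjusted p of 0.855 and 0.733 (limma). Postn, periostin of activated fibroblasts, had 0.43 ± 0.59 (-0.83 to 1.70). These intervals hold both a larger and a smaller matrix response on the BCAA-free diet. Fbln1 (0.30 ± 0.09) and Dcn (0.40 ± 0.12), with the smallest p of the list, passed in neither response nor in the difference.

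The fetal and hypertrophy genes gave no called difference. TAC raised 8 of 19 on the control diet (3.4% of all genes) and 10 on the BCAA-free diet (2.94%), and the median difference was 0.03. Myh7, the slow myosin heavy chain of the fetal ventricle, had the smallest p. It held 26813, 26612 and 24142 normalised reads in control sham, 49491, 36099 and 35763 in control TAC, 30314, 36653 and 33827 in BCAA-free sham, and 78590, 63992 and 76264 in BCAA-free TAC. BCAA-free TAC was the highest group and overlapped none of the others. Myh7 rose on both diets, by 0.63 (adjusted p = 0.0216, limma) and 1.12 (adjusted p = 0.000957), and the difference was 0.49 ± 0.17 (95% interval 0.12 to 0.85, adjusted p = 0.328). Myh6, the adult myosin, had 0.09 ± 0.25. Nppa, atrial natriuretic peptide, had 0.63 ± 0.56 (-0.58 to 1.84), Nppb, the B-type peptide, -0.44 ± 0.49 (-1.49 to 0.62), and Acta1, skeletal actin, -0.77 ± 0.46 (-1.76 to 0.22), with adjusted p from 0.615 to 0.833. Nppa is itself among the 9 atrial markers. Together the 9 held 3191, 2157 and 1289 CPM in BCAA-free TAC and 1627, 901 and 765 in control TAC. They held 419 to 1059 CPM in sham. This sum contains the Nppa reads and is no separate evidence on Nppa. The part of the other atrial markers in the Nppa value was not tested. Acta1 held 64258 normalised reads in BCAA-free TAC replicate 1 and 21500 and 17687 in the others, against 58440 to 72646 in control TAC.

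**Figure D4:**
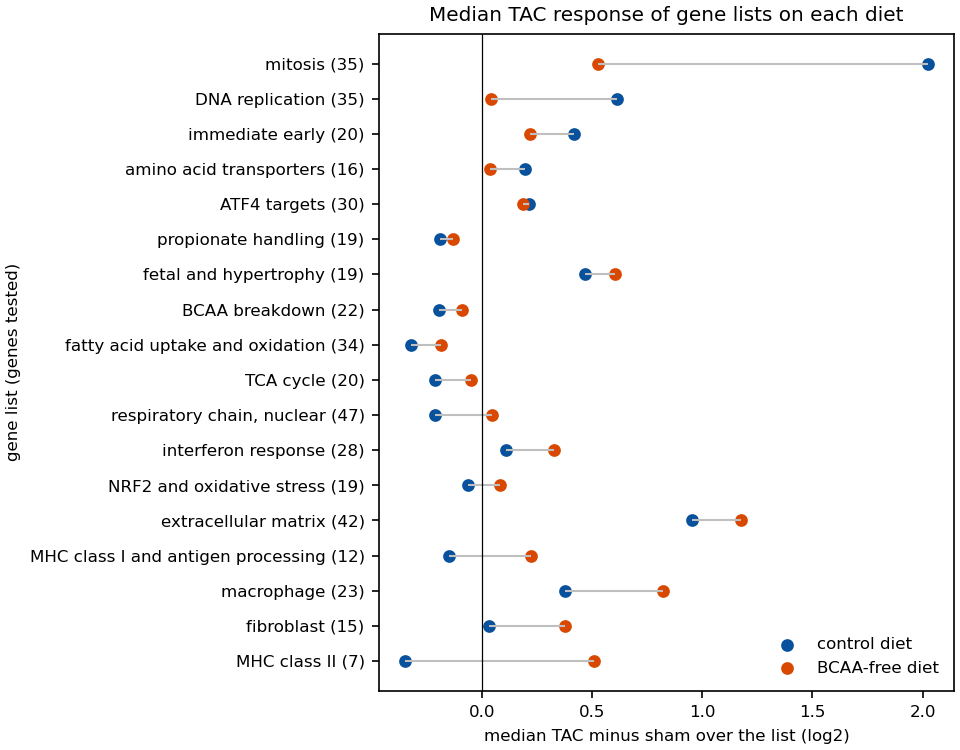
Median TAC response (log2) of 18 gene lists on the control diet (blue) and the BCAA-free diet (orange), with the number of genes tested in parentheses. Of these 18 lists, mitosis is furthest apart (2.02 and 0.53). The MHC class II list has medians on opposite sides of 0 (-0.35 and 0.51), and the lists of BCAA breakdown and propionate handling lie close together.

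Mitochondrial lists had small differences above 0. Of 47 nuclear genes of the respiratory chain 44 had a difference above 0 (49.8% of all genes), with a median of 0.23. An unadjusted p under 0.05 was reached by 19 (5.14%), and 0 passed the threshold. TAC lowered 6 on the control diet (background 1.94%) and 0 on the BCAA-free diet. Cox5a, a subunit of cytochrome c oxidase, fell by 0.41 on the control diet (adjusted p = 0.0255, limma), its response on the BCAA-free diet was 0.04, and the difference was 0.44 ± 0.12 (adjusted p = 0.237). Ndufb9, a subunit of complex I, had 0.49 ± 0.15 (adjusted p = 0.278). The summed level of the list was 31667 to 34332 CPM in control TAC and 34855 to 40282 in the other groups, so that control TAC lay just below them. The cardiomyocyte markers moved with it, above 0 in 10 of 11 (49.8% of all genes) with a median of 0.25, and their part was not tested. Fatty acid uptake and oxidation genes had a median of 0.15, with 31 of 34 above 0 (49.8% of all genes). Of these, 3 reached an unadjusted p under 0.05 (5.14%). TAC lowered 12 of the 34 on the control diet (1.94% of all genes) and 0 on the BCAA-free diet (1.37%). Cpt1b, the gate of fatty acids into heart mitochondria, fell by 0.47 on the control diet (adjusted p = 0.0132), with a difference of 0.25 ± 0.10 (adjusted p = 0.392). Ucp3, the uncoupling protein of muscle, held 2161, 1541 and 1314 normalised reads in control TAC and 1770, 2626 and 3732 in BCAA-free TAC, which overlapped, and 3261 to 4737 in sham. Its difference was 0.94 ± 0.31 (95% interval 0.29 to 1.60, adjusted p = 0.291). TCA cycle genes had a median of 0.16, with 18 of 20 above 0 (49.8% of all genes). An unadjusted p under 0.05 was reached by 2 (5.14%), Sdhc (0.30 ± 0.12) and Mdh1 (0.25 ± 0.11).

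**Figure D5:**
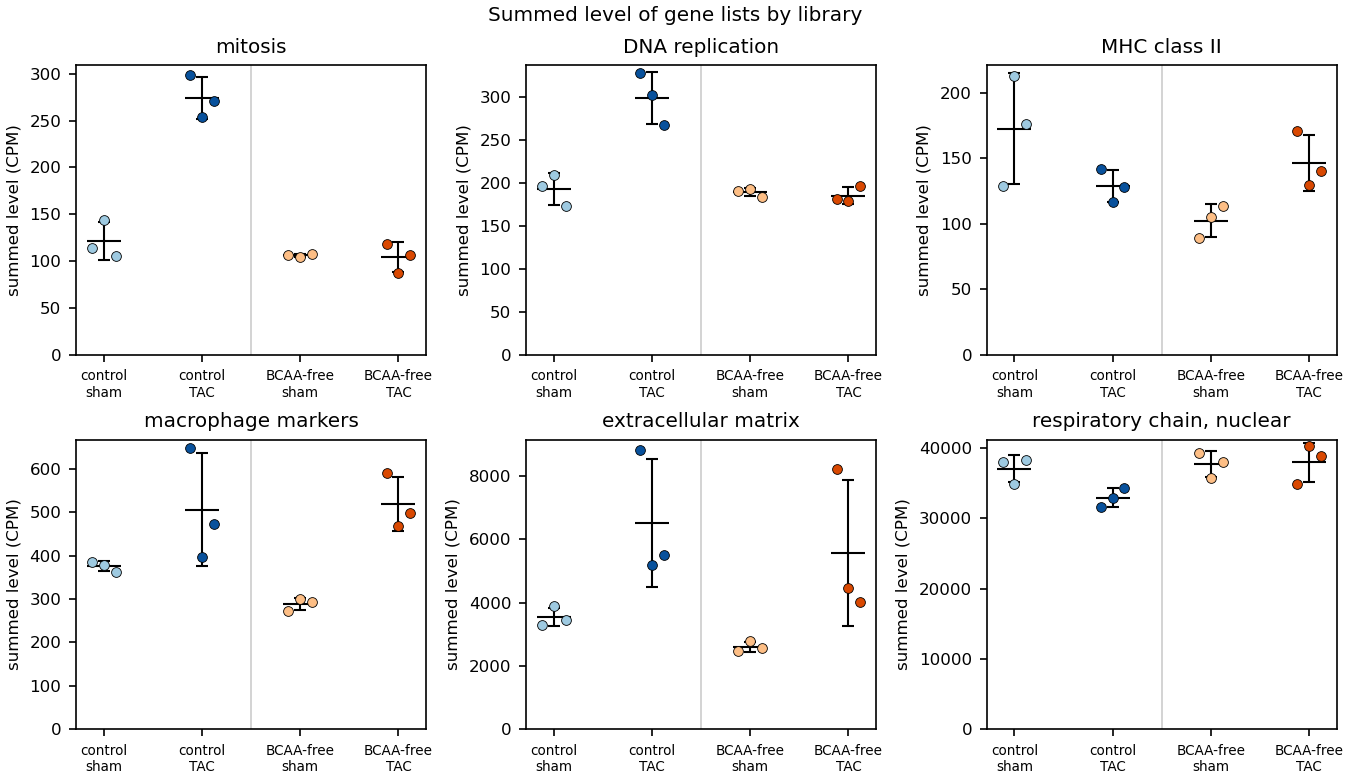
Summed level in CPM of 6 gene lists in each library, with the mean and SD of each group (n = 3). Control TAC is apart from the other groups for mitosis and DNA replication, while the TAC groups of both diets overlap for macrophage markers and extracellular matrix.

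Genes that handle BCAA, which the diets varied, and propionate, which both diets held, gave no called difference. Of 22 genes of BCAA breakdown 17 had a difference above 0 (49.8% of all genes), with a median of 0.07. An unadjusted p under 0.05 was reached by 1 (5.14%), Acad8 (0.21 ± 0.09). Bcat2, the aminotransferase of the first step, held 3265 to 4225 normalised reads on the control diet and 4020 to 4515 on the BCAA-free diet. The diets were scaled separately here, so these ranges cannot be set against each other. Scaled together, Bcat2 differed between the diets by 0.12 in sham hearts (adjusted p = 0.476, limma) and 0.24 in TAC hearts (adjusted p = 0.12). Its difference of TAC responses was 0.12 ± 0.11 (95% interval -0.12 to 0.36, adjusted p = 0.791, limma). Bckdha, a subunit of the committing dehydrogenase, held 4607, 4540 and 5197 in control sham, 2801, 3550 and 3282 in control TAC, 5452, 5279 and 5995 in BCAA-free sham, and 4018, 5880 and 4292 in BCAA-free TAC. TAC lowered it on the control diet, where the groups did not overlap, by 0.58 (adjusted p = 0.0131). On the BCAA-free diet, where they did, its response was -0.26 (adjusted p = 0.259), and the difference was 0.32 ± 0.17 (-0.05 to 0.69, adjusted p = 0.563).

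Of 22 propionate-handling genes 19 were tested, 11 with a difference above 0 (49.8% of all genes). An unadjusted p under 0.05 was reached by 1 (5.14%), Mcee, the epimerase of methylmalonyl-CoA (0.45 ± 0.17, adjusted p = 0.357, limma). The median was 0.01. Pcca, a subunit of propionyl-CoA carboxylase, had 0.14 ± 0.10 (95% interval -0.07 to 0.36). Targets of ATF4, the transcription factor of amino acid shortage, had a median of -0.06, with 17 of 30 below 0 (50.2% of all genes). An unadjusted p under 0.05 was reached by 2 (4.96%), Cebpb and Mthfd2. Cebpb held 920, 519 and 313 normalised reads in control sham, 1497, 1345 and 1680 in control TAC, 1339, 1139 and 960 in BCAA-free sham, and 764, 693 and 998 in BCAA-free TAC. Control TAC was the highest group, and control sham was widely spread and overlapped BCAA-free TAC. TAC raised Cebpb by 1.49 on the control diet (adjusted p = 0.0258), and its response on the BCAA-free diet was -0.49 (adjusted p = 0.0846). Asns, asparagine synthetase and a classical target, held 115 to 175 in control TAC, 87.6 to 92.5 in BCAA-free TAC and 49.9 to 82.0 in sham, with a difference of -0.48 ± 0.30 (-1.11 to 0.15, adjusted p = 0.628). Mthfd2, a mitochondrial folate enzyme, had -1.28 ± 0.44 (adjusted p = 0.324).

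Amino acid transporters had a median of -0.08, with 11 of 16 below 0 (50.2% of all genes). Slc38a4, a transporter of neutral amino acids, rose by 0.80 on the control diet (adjusted p = 0.0148, limma), its response on the BCAA-free diet was -0.08, and the difference was -0.88 ± 0.21 (adjusted p = 0.179). Genes of NRF2 and the oxidative stress response had a median of 0.28, with 17 of 19 above 0 (49.8% of all genes). Of these, 9 reached an unadjusted p under 0.05 (5.14%) and 0 passed the threshold. Gpx1, the cytosolic glutathione peroxidase, rose by 0.71 on the BCAA-free diet (adjusted p = 0.00582) against 0.16 on the control diet, a difference of 0.54 ± 0.14 (adjusted p = 0.216), and Prdx1, a peroxiredoxin, had 0.36 ± 0.10 (adjusted p = 0.261). Among 20 immediate early genes Klf2 alone passed. The median was -0.20, and Jund, an AP-1 subunit, had -0.49 ± 0.17 (adjusted p = 0.313).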

How the data were processed

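RNA of 12 heart libraries was measured after polyA selection, per the labels' protocols. Trimmomatic 0.36, STAR 2.5.2b, Subread 1.5.2 and DESeq2 with GRCm38 (mm10) are named in the submitters' processing notes, with no settings. The authors deposited 4 tables, each of 2 groups with a common diet or a common surgery. The deposited values are a signal: gene reads over a per-library size factor, set anew in every table, as the values show. Multiplied back, 100% were within 0.001 of a whole read. The authors' log2 fold changes and p-values, per the file headers, were not used here. All sample columns were matched by their labels.

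The test was limma 3.58.1 (R 4.3.3) with an intensity trend on log2(value + 4), which understates the change of low genes, over the 12 columns of both TAC tables, with 4 group means. P-values are two-sided and Benjamini-Hochberg adjusted over all genes, with a threshold of 0.05. The 2 TAC responses and 2 diet contrasts were fitted within their own tables in the same way. CPM are recovered reads scaled to a common total over genes listed in both TAC tables. Alternatives were edgeR 4.0.16, DESeq2 1.42.0 and limma voom on recovered reads, other pseudocounts, filters, scalings and left-out libraries. The fit was tested on simulated data. Gene coordinates come from GENCODE M21 (GRCm38), which held 15495 of 15524 identifiers.

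The comparison and the gene lists were chosen with earlier results of these data known. Lists are described by counts and medians, with no test, and the 18 described are a part of those computed. Named genes are all that passed, the genes with the smallest p among the rest up to 24 with a mean of at least 50 and a symbol that is no predicted gene, up to 2 members of each list with the smallest p, and a set of cardiac, matrix and BCAA genes fixed by name, of which Alb was not listed in both TAC tables. Kif11 and Top2a were named for their promoters, and the gene families of the closing section after their values were seen.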

Additional observations from a re-analysis of the deposited data

Results flagged for a closer look

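The TAC response differed between the diets, by the test of the difference itself (limma, adjusted p under 0.05), in 7 genes, of which 6 responded less or in the opposite direction on the BCAA-free diet. The log2 differences were -1.20 for Lmnb1, -1.22 for Klf2, -0.64 for Srsf2, -2.54 for Gm25262, -1.97 for Cdc7 and -1.08 for Stmn1. Igfbp6 responded more on the BCAA-free diet, by 0.79.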

How the results depend on the processing

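The count of 7 genes (1 above 0, 6 below) moved with the processing. It was 4 (1 above, 3 below) with pseudocount 1, with a mean of at least 50 and with quantile normalization, and 4 (0 above) without an intensity trend, 3 of them among the 7. DESeq2 on recovered reads called 109 genes, 41 above and 68 below, all 7 among them; edgeR and limma voom called 5 each. Other pseudocounts, filters, the diet tables' columns and a robust prior spread gave 7. Leaving out 1 library gave 2 to 15 genes, 0 to 4 above and 2 to 11 below, with 15 without BCAA-free TAC replicate 1, 11 without control sham replicate 1 and 2 to 5 without any of the other 10. Without control TAC replicates 2 and 3, an alternative chosen after seeing the data, 1 gene passed (Fhl1, below 0; 0 above) in a fit of 10 libraries in which control TAC is 1 sample assumed to vary like the others. With the replicate number as a block 3 genes passed (Lmnb1, Srsf2 and Klf2, all below 0; 0 above). Of 18 same-number pairs 3 deviated together with a correlation over 0.1 (range -0.11 to 0.27), and 5 of 12 libraries correlated best with their own number. The highest value was that of replicate 1 of the TAC groups. Pairs with different numbers ranged from -0.19 to 0.15. The labels do not say whether the numbers pair the libraries, and these correlations cannot decide it.

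Signs that turned were those of values that had not passed. Without control TAC replicates 2 and 3 these were Nppa (-0.18), Col1a1 (-0.44), Col3a1 (-0.24) and Postn (-0.44), and the medians of macrophage markers (-0.028), extracellular matrix (-0.20) and fetal genes (-0.18). Quantile normalization turned the median of propionate handling (-0.015). Leaving out 1 library gave ranges across 0 for Col1a1 (-0.072 to 0.82), Postn (-0.14 to 0.90) and Lmna (-0.15 to 0.061). The same held for the medians of fetal genes (-0.093 to 0.21), extracellular matrix (-0.086 to 0.50), propionate handling (-0.0045 to 0.074), amino acid transporters (-0.16 to 0.0042), ATF4 targets (-0.098 to 0.0096) and immediate early genes (-0.38 to 0.044). The lowest values of Col1a1, Postn and the fetal and matrix medians came without BCAA-free TAC replicate 1. The mitosis and DNA replication medians lay between -1.67 and -1.16 and between -0.68 and -0.55 in all 26 settings. The cause of these shifts was not tested. Depth limits low genes such as Gm25262 and Cdc7, whose lowest values were 4.21 and 22.2 normalised reads.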

Other observations

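Some gene families were looked up after their values had been seen, so their counts are descriptions. The Hnrnp, tubulin, MCM and Kif families held 0 called genes each. Of 10 Srsf genes of the SR splicing factors 9 had a difference below 0 (50.2% of all genes), with a median of -0.26. An unadjusted p under 0.05 was reached by 6 of the 10 (10.1% of all genes, either direction). Srsf9 followed Srsf2 with -0.50 ± 0.11 (adjusted p = 0.162, limma). Of 20 Hnrnp genes, which coat nascent transcripts, 20 lay below 0 (50.2% of all genes), and the median was -0.11. Of these, 4 reached an unadjusted p under 0.05 (10.1% of all genes, either direction). The median response of the Srsf genes was 0.09 on the control diet and -0.17 on the BCAA-free diet.

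Among the lamins, Lmnb2, the other B-type lamin, had -0.77 ± 0.19 (adjusted p = 0.189, limma), while Lmna, the lamin of differentiated cells, had -0.04 ± 0.13 (adjusted p = 0.959). Of the 6 subunits of the MCM helicase 6 lay below 0 (50.2% of all genes), with a median of -0.66. An unadjusted p under 0.05 was reached by 5 of the 6 (10.1% of all genes, either direction). Of 12 tubulins 10 lay below 0 (50.2% of all genes), with a median of -0.31. Of 12 Klf genes 7 lay below 0, near the share of all genes (50.2%), with differences from -1.22 (Klf2) to 0.75 (Klf10). Other families were mixed. Of 32 genes with Kif symbols 20 lay below 0 (50.2% of all genes) and 12 above (49.8%), with a median of -0.13. Of 6 Igfbp genes 3 lay below 0 and 3 above, as among all genes (50.2% and 49.8%), with a median of -0.02.

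Of 15 T and NK cell markers 6 were tested. Their summed level was 7.24 to 10.6 CPM in BCAA-free sham, 9.56 in BCAA-free TAC replicate 1 and 1.83 to 4.78 in the other 8 libraries. The 6 markers Cd3d, Cd3e, Cd3g, Cd8b1, Ccl5 and Nkg7 were listed in the BCAA-free TAC table alone.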
